A study of Oryza sativa with 6 samples.

Results

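The genes described here build, loosen or seal the plant cell wall, and their transcripts were compared between shoot apices of wild-type (WT) rice and of the mutant dsl1. They were chosen by name, as the genes whose symbol or synonym in the rice gene reference belongs to a wall or barrier family. The families were set with earlier results of these data known. The rule found 100 genes among the 15140 that a transcript cluster (a group of probes read as 1 transcript) could be tied to: 18 alpha-expansins, 9 beta-expansins, 2 expansin-like genes, 16 cellulose synthase-like genes, 14 genes of the casparian strip protein family, 10 laccases, 9 endoglucanases, 6 cellulose synthases, 9 enzymes of the lignin pathway, 6 genes with a BC symbol and the xyloglucan enzyme gene XTH8. No ONI, CUGBP or XTR gene was matched, and no glutelin had to be dropped. Of the BC matches, the gene listed as BC1 is also listed as bHLH081, a transcription factor of the bHLH family and no wall protein, and the gene listed as BC2 is KIN4A, a kinesin motor. Both are kept in the counts, and without them the other 98 genes had a median difference of 0.037 on the log2 scale in place of 0.023.

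Rice plants of both genotypes were grown in soil, and their apices, which hold the meristem with the leaf primordia around it, were taken as the tip of the fifth leaf appeared. There were 3 WT and 3 dsl1 samples, with 1 single-colour array each and no treatment. dsl1 is a dwarf with slender leaves, and the affected gene encodes a histone deacetylase. The labels give neither the allele nor whether the replicates are separate pools of plants. The p-values therefore reflect the spread of these 6 samples, which may be technical.

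The growing plant cell is held in a wall of cellulose microfibrils set in a matrix of other polysaccharides, which in grasses are mainly arabinoxylan and mixed-linkage glucan. Cellulose synthases spin the microfibrils at the plasma membrane, while expansins and wall hydrolases let the wall yield to turgor. In cells that have stopped growing the wall can be thickened and impregnated with lignin, whose monomers come from phenylalanine and are joined by laccases and peroxidases. Casparian strip proteins and their relatives mark membrane domains, and the founding members guide the lignin barrier of the root endodermis.

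The 6 arrays correlated at 0.9621 to 0.9806 with each other, and WT replicate 2 stood apart, at 0.9704 and 0.9708 with the other WT arrays against 0.9795 between those. Values of different clusters come from different probes, so differences in level between genes are not read as differences in transcript amount. Levels served only to pick a gene's cluster, to choose which genes are named and to mark dim or bright signal. In whole apices, fewer cells of a type and less RNA per cell cannot be told apart. The tissue was checked by its markers: the 6 meristem genes (OSH1, OSH15, OSH71, FON1, LOG and WOX4) averaged 5.54 to 5.71 in the WT arrays and 5.71 to 6.03 in the dsl1 arrays, and the 6 primordium genes (DL and 5 YABBY genes) 6.50 to 6.78 and 6.42 to 6.65. Greening leaf was also present, with 5 marker genes averaging 9.11 to 9.40 in WT and 8.82 to 9.27 in dsl1. Of markers of other organs, 5 floral genes averaged 3.48 to 3.58 in WT and 3.84 to 3.93 in dsl1, without overlap and with 3 of the 5 in the dimmest of 5 equal groups of clusters. The 4 root genes averaged 4.31 to 4.36 in WT and 4.38 to 4.50 in dsl1, also without overlap. The part of these tissue markers in the results that follow was not tested.

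No cell wall or barrier gene passed the test between dsl1 and WT. The test was limma on the log2 values with Benjamini-Hochberg adjustment over all 54922 clusters at 0.05, where 14 clusters, 0.0255%, were called, and 6 of the 15140 genes, 0.0396%. The smallest adjusted p among the 100 genes was 0.196. At an unadjusted p under 0.05, 9 of the 100 were higher in dsl1, against 9.46% of all genes and 6.06% of all clusters. On the lower side there were 8, against 5.52% of genes and 5.70% of clusters. The first share is near that of all genes. With 1 array fewer the second count was smaller whichever was left out: 3 genes were lower without WT replicate 2, 4 without dsl1 replicate 1 or 2, and 5 without any 1 of the other arrays. The number of all clusters under 0.05 in either direction, 6459, was 6458 without WT replicate 2. It fell to between 4669 and 6033 without any other array. That number holds both directions, and the lower side alone was not counted over all clusters with an array left out. Whether the fall is particular to these genes was therefore not tested. The 3 dsl1 values lay wholly above the 3 WT values in 15 of the 100, as in 15.0% of genes and 9.15% of clusters, and wholly below in 10, as in 9.33% of genes and 10.2% of clusters. The median difference was 0.023 over the 100 genes and 0.019 over all 15140. Of the 100, 54 were higher in dsl1, against 53.0% of all genes, the share to set beside the sign counts by family below. Differences over 0.5 on the log2 scale, in either direction, were seen in 15 of the 100, against 10.3% of all genes and 10.6% of all clusters.

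**Figure D1:**
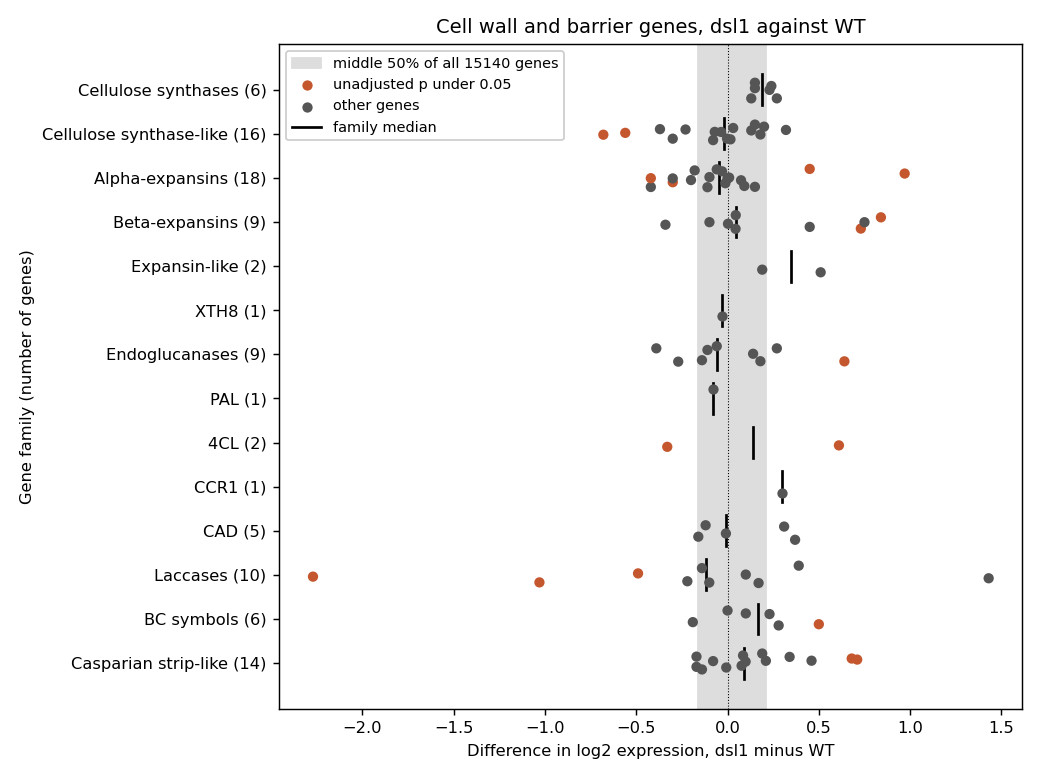
Difference in log2 expression (dsl1 minus WT, horizontal axis) of each of the 100 genes by family, with the number of genes in brackets. Points are genes, black bars family medians, and the grey band the middle 50% of all genes, -0.16 to 0.21. Cellulose synthases sit together on the right of 0, and laccases reach from -2.27 to 1.43.

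Among the 17 genes at an unadjusted p under 0.05, 7 stayed under it in all 15 alternatives, which included leaving out each array in turn: CASPL1E1, CASPL4B4, GLU3, 4CL3 and BC1L6 on the higher side, and CSLA5 and LAC20 on the lower side. At the other end EXPA14 stayed under it in 4 of 14 and 4CL4 in 7 of 15. The 7 genes also had the smallest p of the 17 in the fit of all arrays, so their staying under 0.05 largely restates that ranking. The share of all genes that stayed under 0.05 throughout was not counted. The values of each of the 17 genes follow with its family.

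The cellulose synthases, catalytic subunits of the complex that makes cellulose, were all slightly higher in dsl1, by 0.13 to 0.27 on the log2 scale. None of the 6 had an unadjusted p under 0.05, and their adjusted p ran from 0.513 to 0.748 in limma. CESA8, a primary wall subunit, was at 9.48, 9.38 and 9.51 in WT and 9.83, 9.60 and 9.64 in dsl1. It was the 1 gene of the family whose groups did not overlap, with a difference of 0.24 and a 95% interval of -0.068 to 0.54. CESA6 differed by 0.27 (interval -0.094 to 0.64), CESA1 by 0.23 (-0.15 to 0.62) and CESA3 by 0.13 (-0.21 to 0.47), and that of CESA1 was 0.11 without WT replicate 2. CESA4 and CESA9, which serve the thick secondary wall of vascular and fibre cells, differed by 0.15 each. All 6 were higher in every one of the alternative scalings and array omissions run, with family medians of 0.141 to 0.247. Single differences came close to 0, however. CESA3 was at 0.03 and CESA9 at 0.073 without dsl1 replicate 1, and CESA4 at 0.051 without WT replicate 2. The intervals leave room for a rise of up to 0.64 and, in every gene, for none. Of the 6, 5 lie in the brightest of 5 equal groups of clusters by mean level, where 62.3% of the 4313 genes were higher in dsl1 and the median difference was 0.077. The order of arrays was similar, though not the same, in the 6 genes. Replicate 1 was the highest dsl1 array for 4 of them and replicate 2 the lowest for 5, while WT replicate 3 was the highest WT array for 5.

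The cellulose synthase-like genes make other wall glycans and differed in both directions, 7 higher and 9 lower, with a median of -0.019. The 5 CSLA genes, whose products make mannan, included 1 gene at an unadjusted p under 0.05. CSLA5 was at 7.27, 7.38 and 7.05 in the WT samples and at 6.32, 6.46 and 6.88 in the dsl1 samples. Every dsl1 value was below every WT value, though dsl1 replicate 3 came close to WT. The level was 1.6-fold lower, a difference of -0.68 ± 0.185 (SE) with a limma adjusted p of 0.302. CSLA9, the gene of that name on chromosome 6, stood at 7.22, 7.91 and 7.14 in WT and 7.27, 7.28 and 6.81 in dsl1, and its difference of -0.30 was -0.059 without WT replicate 2 and -0.15 without dsl1 replicate 3. CSLA1, for which CSLA9 is also listed as a synonym, differed by -0.079 and CSLA7 by 0.15. CSLA9 and other genes named for their array pattern or their place on a chromosome were chosen after their values were seen.

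Of the CSLF genes, a grass family that makes mixed-linkage glucan, CSLF6 is the main synthase in rice. Its brighter cluster differed by 0.031 (interval -0.31 to 0.37) and the other by 0.093 (-0.25 to 0.43). CSLF2 was at 2.65, 2.12 and 2.47 in WT and 1.96, 1.53 and 2.07 in dsl1, with a difference of -0.56 and an adjusted p of 0.381. The groups did not overlap, but all 6 values lie under 2.81, the mean level in the group of dimmest clusters, where differences are hard to size. CSLF7, also dim, differed by -0.37, or by -0.18 without WT replicate 1. CSLE1, of a family with no settled product, was at 6.63, 6.62 and 6.55 in WT and 6.68, 6.90 and 7.19 in dsl1, a difference of 0.32 with an adjusted p of 0.480, and 0.19 without dsl1 replicate 3. CSLD2 and CSLD5, of the family that acts in tip-growing and dividing cells, differed by 0.13 and 0.016, and CSLC2, of the family that makes the xyloglucan backbone, by 0.18.

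The expansins, small proteins that loosen walls without cutting them, had a median of 0.0026 over 29 genes. An unadjusted p under 0.05 was found for 4 of the 29 on the higher side and 2 on the lower, against 9.46% and 5.52% of all genes. None passed the test, and the smallest adjusted p was 0.344. By subfamily, 12 of 18 alpha-expansins were lower, with a median of -0.044, and 7 of 9 beta-expansins were higher, with a median of 0.045. The alpha-expansin split is not stable, since 11 of the 18 were higher once WT replicate 2 was left out. For the beta-expansins 5 of 9 were higher without WT replicate 1 or dsl1 replicate 2, and the difference between the subfamilies was not tested. Many alpha-expansins were near the floor, with 9 of 18 in the dimmest of the 5 groups of clusters.

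EXPA2 had the largest difference of the expansins. It was at 6.02, 6.62 and 6.43 in WT and at 7.99, 7.31 and 6.68 in dsl1. The dsl1 samples were spread widely, and replicate 3 was barely above the highest WT sample. The mean was 1.96-fold higher, a difference of 0.97 ± 0.337 (SE) with a limma adjusted p of 0.365, and over the alternatives it ranged from 0.64, without dsl1 replicate 1, to 1.3. EXPA33, next to EXPA3 on chromosome 5, was dim, at 2.77, 2.39 and 2.64 in WT and 2.96, 3.11 and 3.09 in dsl1. Its groups did not overlap, and its difference was 0.45 (adjusted p = 0.344), while that of EXPA3 was -0.012.

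On the lower side, EXPA22 was at 3.74, 3.95 and 3.48 in WT and 3.30, 3.42 and 3.19 in dsl1. EXPA14, in the same stretch of chromosome 2, was at 4.16, 4.27 and 4.03 in WT and 3.88, 3.82 and 3.84 in dsl1. In both, every dsl1 value was below every WT value, but the differences were small, -0.42 and -0.30, with adjusted p of 0.397 and 0.415. EXPA21 differed by -0.42 as well, from 6.54, 7.02 and 6.51 in WT to 6.49, 5.97 and 6.35 in dsl1, and by -0.26 without WT replicate 2 or -0.27 without dsl1 replicate 2. EXPA13, in the same stretch of chromosome 2 as EXPA14 and EXPA22, went the other way, by 0.15. EXPA11 differed by 0.0088, with an interval of -0.38 to 0.39. The other 14 alpha-expansins, those with an unadjusted p of 0.05 or more, lay between -0.42 and 0.15.

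Of the beta-expansins, the group that acts on the walls of grasses, 3 genes lying side by side on chromosome 10 were higher in dsl1. EXPB3 was at 9.60, 10.33 and 9.36 in WT and 10.92, 10.42 and 10.14 in dsl1. EXPB2 was at 6.07, 4.91 and 4.87 in WT and 6.11, 6.42 and 5.84 in dsl1. EXPB6 was at 5.31, 5.64 and 5.32 in WT and 6.96, 5.94 and 5.63 in dsl1. In none of the 3 were the groups apart, because 1 WT sample reached the dsl1 range in each: replicate 2 for EXPB3 and EXPB6 and replicate 1 for EXPB2. The differences were 0.73, 0.84 and 0.75, 1.66-fold, 1.80-fold and 1.68-fold, with limma adjusted p of 0.421, 0.415 and 0.445. Without dsl1 replicate 1 they were 0.52, 0.85 and 0.36. EXPB7, on chromosome 3, differed by 0.45 with its 3 dsl1 values above WT, the lowest only just, and by 0.21 without dsl1 replicate 1. Its neighbour EXPB8 differed by 0.045. The expansin-like genes EXLA1 and EXLA4 differed by 0.51 and 0.19, both with overlapping groups, and EXLA1 by 0.33 without WT replicate 3.

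In all, 27 of the 100 genes lie in 10 groups in which genes of 1 family follow each other with at most 5 other coding genes between them. All genes of a group had the same sign in 6 of the 10, several of them with differences near 0, and the signs were mixed in 4. Small groups can share a sign with no link between their genes, and how often was not worked out. In the chromosome 10 beta-expansins every gene differed by over 0.5, which no longer held for EXPB6 (0.36) without dsl1 replicate 1. In the row of CSLF genes on chromosome 7, CSLF9, CSLF8, CSLF2, CSLF4 and CSLF3 differed by -0.23, -0.0027, -0.56, -0.070 and 0.20. The alpha-expansins EXPA12, EXPA18 and EXPA20 on chromosome 3 differed by -0.11, -0.00038 and -0.030. Neighbouring family members can be similar in sequence, and probes that read more than 1 of them were not tested for here.

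**Figure D2:**
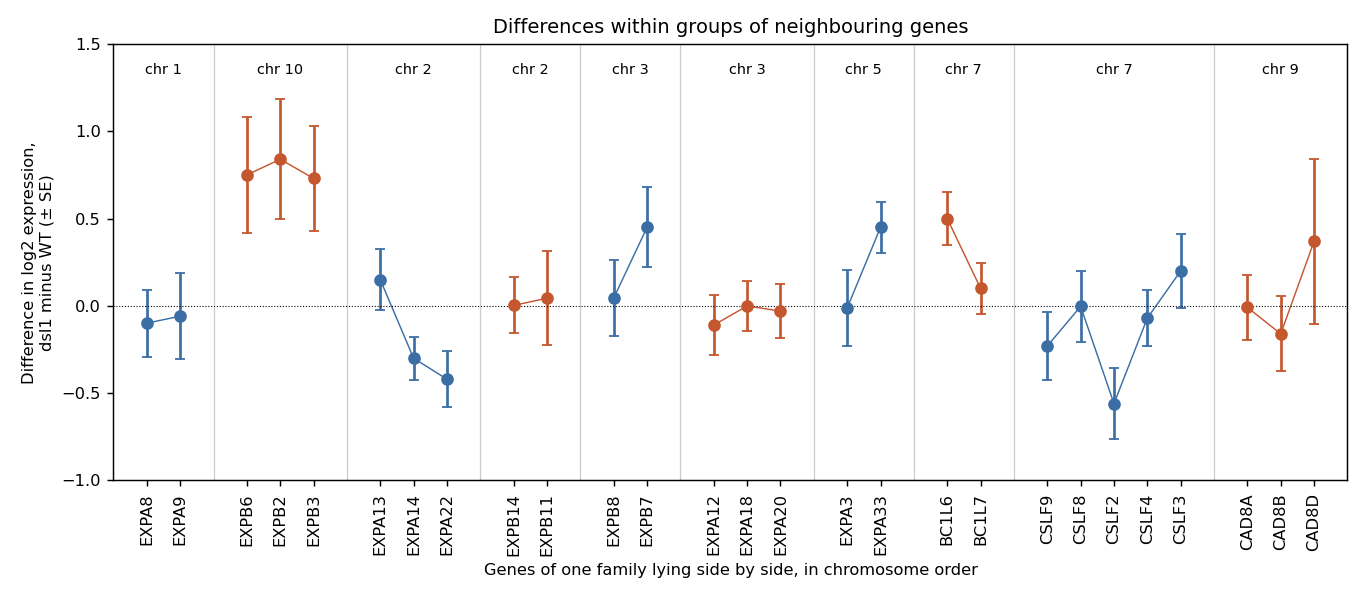
Difference in log2 expression (dsl1 minus WT, vertical axis, with SE) for the 27 genes that lie beside another gene of the same family, in chromosome order, with lines joining genes of 1 group. The 3 beta-expansins of chromosome 10 lie at 0.73 to 0.84, and the 5 CSLF genes of chromosome 7 spread from -0.56 to 0.20.

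The enzymes that cut or rejoin wall glycans included 1 gene at an unadjusted p under 0.05. GLU3, also listed as RT, is a membrane-bound endoglucanase needed for cell elongation in rice roots. It was at 5.40, 5.03 and 5.56 in WT and 5.97, 5.96 and 5.99 in dsl1. The 3 dsl1 samples were almost identical and all above WT. The level was 1.56-fold higher, a difference of 0.64 ± 0.164 (SE) with a limma adjusted p of 0.286. GLU1, a related membrane-bound enzyme whose loss gives dwarf rice, differed by 0.27 (interval -0.16 to 0.71), and by 0.41 without WT replicate 2 or 0.17 without dsl1 replicate 1. GLU5 was at 5.86, 5.80 and 5.77 in WT and 5.68, 5.68 and 5.26 in dsl1, without overlap, a difference of -0.27 that became -0.13 without dsl1 replicate 3. GLU12 differed by -0.39 in its brighter cluster (-0.25 without dsl1 replicate 2) and by -0.083 in the other. GLU2, GLU6, GLU8, GLU10 and GLU14 lay between -0.14 and 0.18. The family's median was -0.059, with 4 genes higher and 5 lower, a split that became 5 and 4 without WT replicate 1, WT replicate 2 or dsl1 replicate 3. XTH8, a xyloglucan endotransglucosylase that cuts and rejoins xyloglucan, differed by -0.029 (interval -0.45 to 0.39).

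Of the 9 enzymes of the lignin pathway, 4 were higher and 5 lower, with a median of -0.0089. The 4CL enzymes, which activate hydroxycinnamic acids, differed in opposite directions. 4CL3, the form most tied to lignin in rice, was at 8.09, 7.87 and 8.25 in WT and 8.88, 8.45 and 8.71 in dsl1. 4CL4, also listed as RAL1 for its part in aluminium resistance, was at 6.87, 6.65 and 6.62 in WT and 6.37, 6.26 and 6.52 in dsl1. Both had groups that did not overlap. 4CL3 was 1.53-fold higher, a difference of 0.61 ± 0.170 (SE), and 4CL4 1.26-fold lower, a difference of -0.33 ± 0.139, with limma adjusted p of 0.311 and 0.423.

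Upstream, the gene listed as PAL, for the enzyme that opens the pathway by removing ammonia from phenylalanine, differed by -0.078 (interval -0.40 to 0.25). CCR1, which reduces the activated acids, was dim, at 2.72, 3.64 and 3.59 in WT and 3.29, 3.47 and 4.10 in dsl1, with a difference of 0.30 that became 0.0045 without WT replicate 1 and 0.066 without dsl1 replicate 3. At the last reduction, CAD2, also listed as GH2 for the gold hull and internode phenotype of its loss, was at 5.92, 5.68 and 6.08 in WT and 6.40, 6.01 and 6.20 in dsl1. Its groups overlapped, and its difference was 0.31 (interval -0.080 to 0.71, adjusted p = 0.504). CAD3 differed by -0.12. The neighbours CAD8A, CAD8B and CAD8D on chromosome 9 were near the floor and differed by -0.0089, -0.16 and 0.37, and the value of CAD8D ran from -0.06 without WT replicate 1 to 0.70 without WT replicate 2.

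The laccases, copper enzymes that oxidise lignin monomers in the wall, held the largest differences among the 100 genes. LAC20 was at 8.81, 7.16 and 8.27 in WT and 7.17, 4.68 and 5.59 in dsl1. The groups overlapped slightly, since WT replicate 2 and dsl1 replicate 1 met at the same level. The mean was 4.81-fold lower, a difference of -2.27 ± 0.672 (SE) with a limma adjusted p of 0.326 and an interval of -3.86 to -0.67. Its difference ran from -2.94 without dsl1 replicate 1 to -1.70 without dsl1 replicate 2.

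LAC7 was at 10.35, 11.62 and 10.15 in WT and 9.52, 9.35 and 10.14 in dsl1. The groups were only just apart, and WT replicate 2 was far above the rest. The difference was -1.03 ± 0.409 (SE, adjusted p = 0.404), and -0.57 without WT replicate 2. LAC18 was dim, at 2.98, 3.60 and 3.29 in WT and 2.77, 2.93 and 2.71 in dsl1, a difference of -0.49 (adjusted p = 0.391) without overlap.

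LAC24 went the other way, from 4.13, 4.16 and 4.02 in WT to 5.11, 7.22 and 4.26 in dsl1. All dsl1 samples were above WT, but by very different amounts, and without dsl1 replicate 2 the difference of 1.43 became 0.58. LAC24 had an adjusted p of 0.467. In dsl1 replicate 2, LAC20, LAC7 and LAC4 were at their lowest, and LAC24 and the brighter cluster of LAC23 at their highest. The other LAC23 cluster did not share this, at 3.42, 3.29 and 3.91 in dsl1, and it differed by 0.30. The remaining laccases, LAC1, LAC3, LAC4, LAC10, LAC15 and LAC23, lay between -0.22 and 0.39. The family's median was -0.12, and 6 of 10 were lower. The split was 5 and 5 without WT replicate 2, WT replicate 3 or dsl1 replicate 2. The secondary wall genes CESA4 and CESA9, taken as markers of lignifying vascular cells, averaged 7.96 to 8.11 in the WT arrays and 8.02 to 8.27 in the dsl1 arrays. Their part in the laccase values was not tested.

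**Figure D3:**
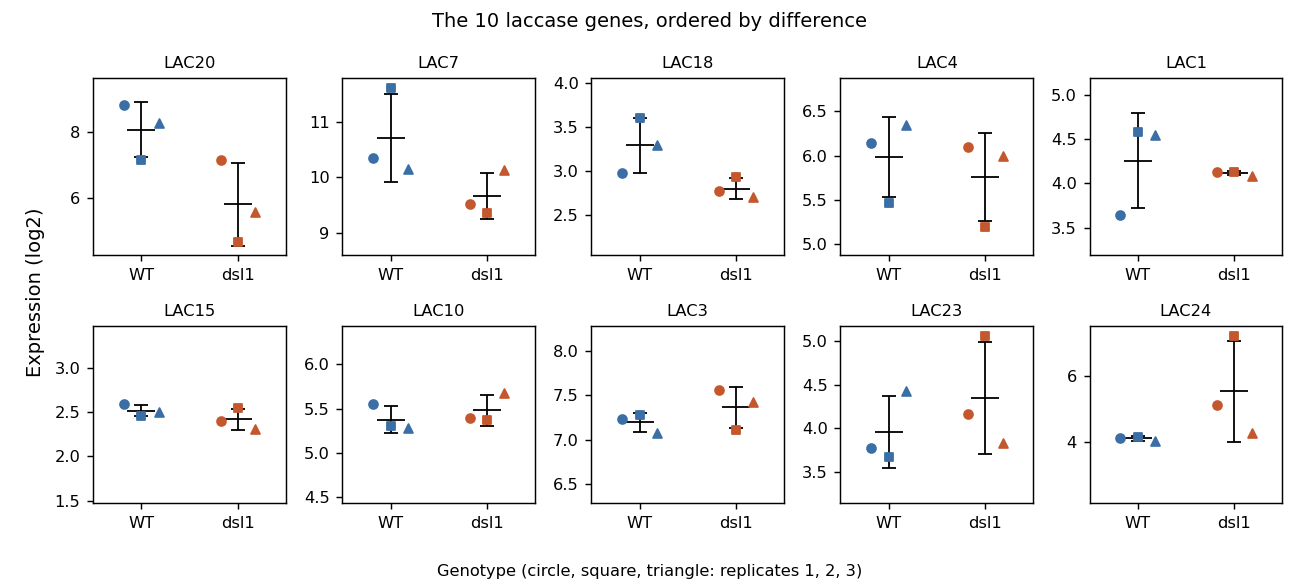
Log2 expression (vertical axes, separate for each gene) of the 10 laccases in the 3 WT (blue) and 3 dsl1 (orange) samples, with marker shape giving the replicate and black bars the mean ± SD. LAC20 and LAC7 lie lower in dsl1 and LAC24 higher, with a spread within genotype as wide as 1.52 (SD, LAC24 in dsl1).

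The COBRA-like genes, relatives of the rice brittle culm gene for a membrane-anchored protein that helps order cellulose, were all 4 higher in dsl1, with a median of 0.26. BC1L6 was at 4.85, 4.78 and 5.04 in WT and 5.60, 5.20 and 5.37 in dsl1. Its groups were apart, and the difference was 0.50 ± 0.153 (SE), with a limma adjusted p of 0.333. BC1L7, its direct neighbour on chromosome 7, differed by 0.10 with an interval of -0.25 to 0.45. BC1L2 was at 6.93, 6.90 and 7.15 in WT and 7.19, 7.24 and 7.24 in dsl1, without overlap, a difference of 0.23. BC1Lp1 differed by 0.28 with overlapping groups, and by 0.18 without WT replicate 1. KIN4A (BC2), a kinesin linked to microfibril order and cell elongation, was at 8.66, 8.70 and 8.76 in WT and 8.70, 8.82 and 8.60 in dsl1, with a difference of 5.3e-05 and an interval of -0.29 to 0.29. bHLH081 (BC1) differed by -0.19.

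The casparian strip protein family was higher in dsl1 in 9 of 14 genes, or 64.3% against 53.0% of all genes, with a median of 0.092. An unadjusted p under 0.05 was found for 2 of the 14, both on the higher side, where 9.46% of all genes were. CASPL1E1 had the smallest p of all 100 genes. It was at 5.73, 5.53 and 5.64 in WT and 6.37, 6.32 and 6.35 in dsl1. The 3 dsl1 samples were within 0.05 of each other and well above every WT sample. The level was 1.64-fold higher, a difference of 0.71 ± 0.121 (SE) with an interval of 0.42 to 1.0. It did not pass in limma over all clusters (adjusted p = 0.196), nor when only clusters with 1 gene were fitted (adjusted p = 0.0555).

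CASPL4B4 was at 5.54, 6.07 and 5.76 in WT and 6.58, 6.61 and 6.24 in dsl1. Its groups were apart, with a difference of 0.68 ± 0.185 (SE, adjusted p = 0.302). CASPL1C2, also listed as BLE3, a brassinolide-enhanced gene, was at 8.84, 8.53 and 8.18 in WT and 9.25, 8.86 and 8.85 in dsl1. The lowest dsl1 value was only just above the highest WT value, and the difference was 0.46 (adjusted p = 0.449), or 0.30 without WT replicate 3. CASPL5B3 was also wholly higher, by 0.21. CASP1, the member that acts at the root endodermis in rice, was at 4.64, 4.80 and 4.46 in WT and 4.43, 4.30 and 4.76 in dsl1, with a difference of -0.14. The 12 members with an unadjusted p of 0.05 or more lay between -0.17 and 0.46. Of the root markers measured, SCR differed by 0.66 at a dim level of 2.99 in WT, and QHB, SHR1 and Lsi2 by -0.12, -0.18 and 0.060. The part of root or endodermal cells in the casparian strip values was not tested.

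**Figure D4:**
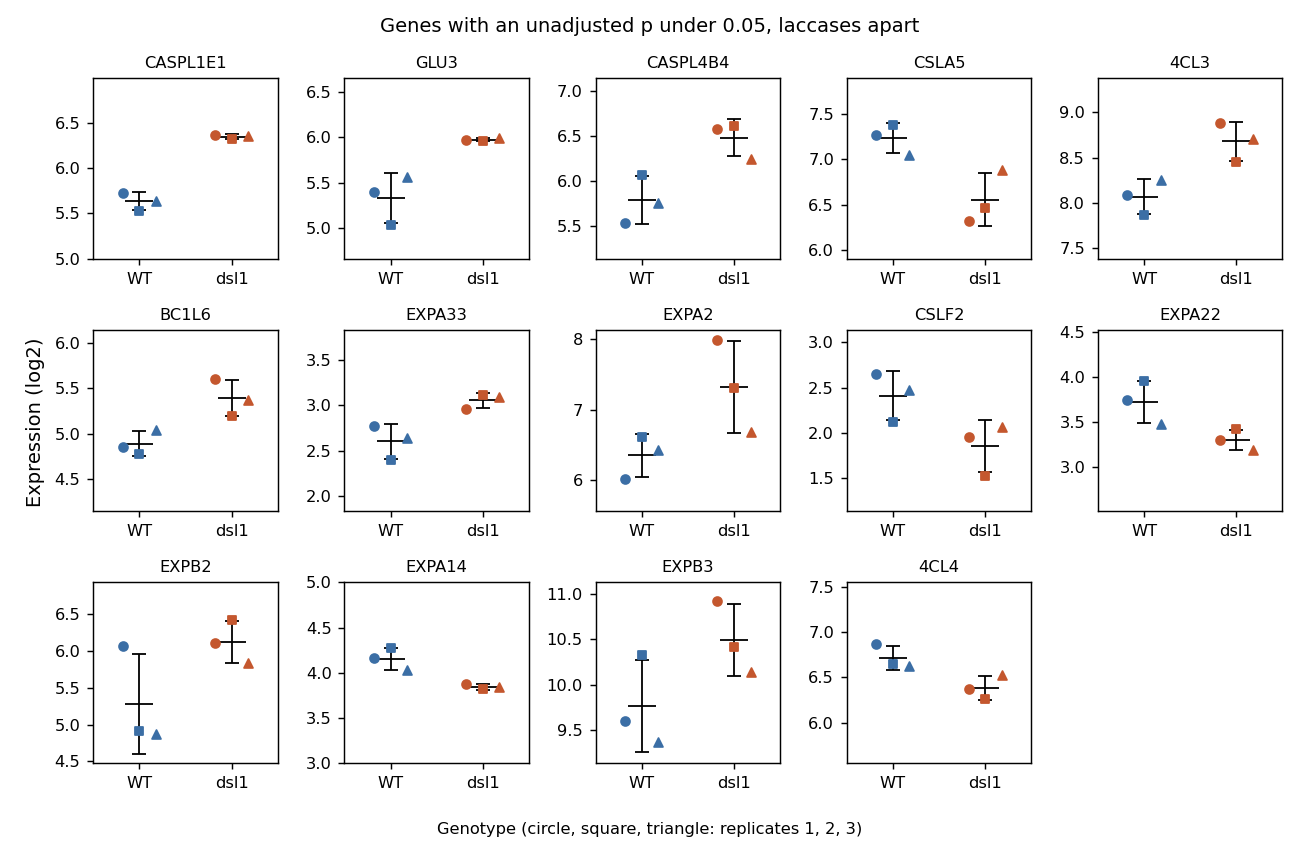
Log2 expression (vertical axes, separate for each gene) of the 14 genes outside the laccases with an unadjusted p under 0.05, in order of p, in the 3 WT (blue) and 3 dsl1 (orange) samples. Marker shape gives the replicate and black bars the mean ± SD. The 3 dsl1 points of CASPL1E1 and GLU3 nearly coincide, while those of EXPA2 spread from 6.68 to 7.99.

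The arrays of 1 genotype differed from each other by family. WT replicate 2 was the highest WT array for 17 of 29 expansins and the lowest for 3, against 36.6% highest over all genes, and for the 6 cellulose synthases it was the lowest in 4. Among the dsl1 arrays, replicate 1 was the highest for 16 of the 29 expansins, against 34.4% over all genes, and replicate 3 for 3. The median of the expansins' deviations from each gene's own mean was 0.10 on the log2 scale in WT replicate 2 and -0.084 in WT replicate 1. For the beta-expansins alone it was 0.32 in dsl1 replicate 1 and -0.34 in WT replicate 1. The median SD within WT was 0.382 for beta-expansins and 0.360 for laccases, against 0.142 for cellulose synthases and 0.194 over all genes.

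**Figure D5:**
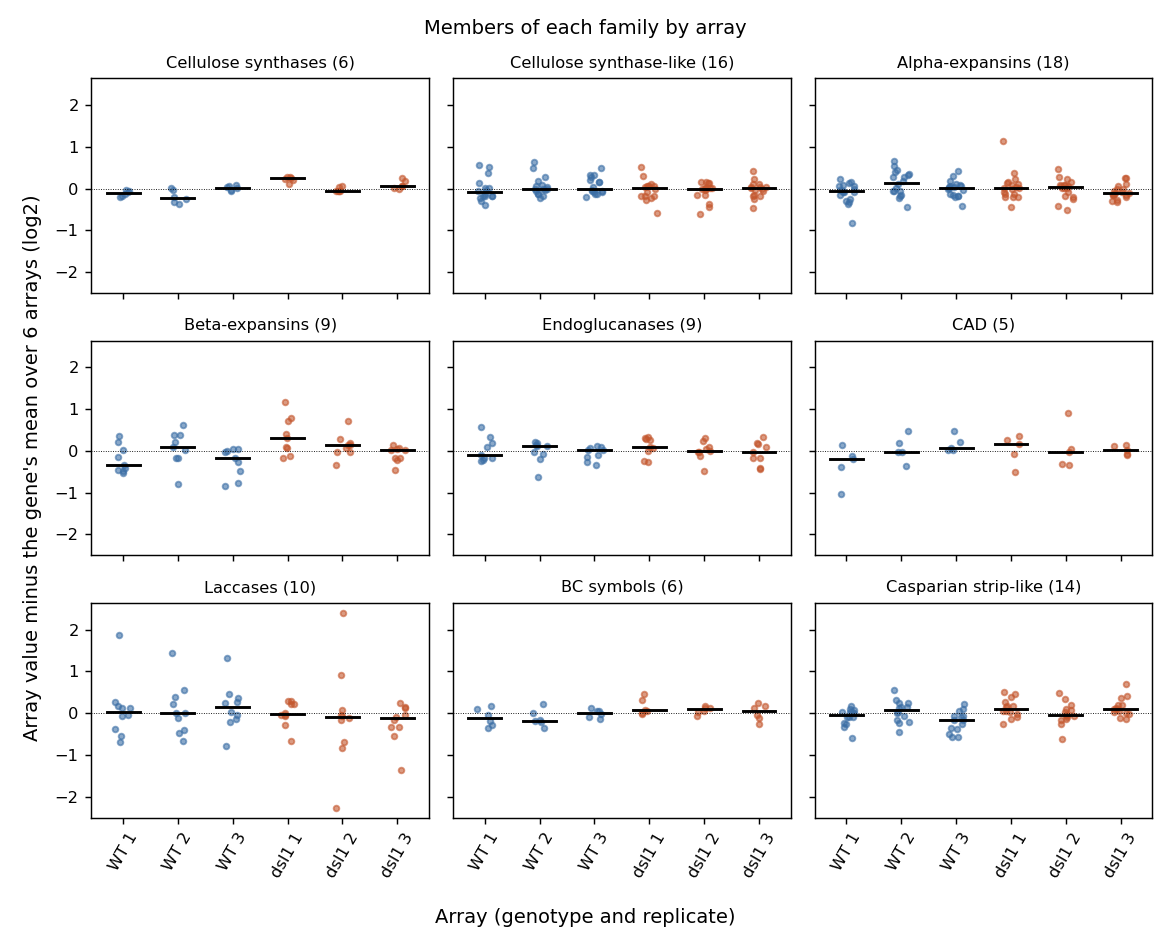
Deviation of each gene from its own mean over the 6 arrays (log2, vertical axis) for 9 families, by array, with points for genes and black bars for the family median. The 6 cellulose synthases are tight, and their median is highest in dsl1 replicate 1 (0.25), the highest dsl1 array for 4 of the 6. The median of the beta-expansins ranges from -0.34 in WT replicate 1 to 0.32 in dsl1 replicate 1.

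Other genes of the wall outside these families were few by symbol. Among 15 genes for xylan synthesis, sucrose synthases and peroxidases, 10 were higher and 5 lower, with a median of 0.15, and 1 had an unadjusted p under 0.05. That gene was SUS5, a sucrose synthase, an enzyme that can supply the sugar nucleotide for cellulose, at 8.92, 8.88 and 8.83 in WT and 8.46, 8.60 and 8.37 in dsl1. The values did not overlap, and the difference was -0.40 ± 0.126 (SE, limma adjusted p = 0.340). SUS1 differed by 0.095 and SUS4 by 0.81, with WT replicate 2 at 9.29 against 7.43 and 7.10 in the other WT samples. The glycosyltransferases of the GT43 family that act on xylan, GT43A, GT43B, GT43E, GT43H and IRX9L, differed by -0.093 to 0.35, and XAT2, which adds arabinose to xylan, by -0.0030. Of the lignin pathway list only HCT3, of the acyltransferase family, was left after unrelated zinc-finger genes with C3H symbols were set aside, and it differed by 0.62 with overlapping groups. Of the cuticle and suberin list, ABCG5, also listed as RCN1, a transporter of suberin precursors, differed by 0.50 (adjusted p = 0.465).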

How the data were processed

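Total RNA of 3 WT and 3 dsl1 shoot apex samples was labelled with biotin and hybridised to single-colour Affymetrix whole-transcript arrays, per the labels' protocols. The deposited values are log2 expression for 54922 transcript clusters. They were made with Affymetrix Expression Console 1.3, per the submitters' processing notes. For background correction, normalisation and summarisation, the setting was not given in the sources used here. Sample titles gave the groups.

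The platform's gene table pairs 15829 clusters with exactly 1 gene and 440 with several, and the latter were not named. Names came from the rice gene reference (assembly ASM3414082v1), in which all 15829 matched by gene identifier. It was also used for which genes neighbour each other. The cluster with the highest mean stood for a gene, and 3 of the 100 genes had more than 1. No filter was set on low values: 31 of the 100 lie in the dimmest 33.3% of clusters. No description or sequence table was used, so lists by description and promoter motifs, both planned, were not run.

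dsl1 was compared with WT in limma 3.58.1 under R 4.3.3 (lmFit, eBayes, 2-sided, no block), with intervals of 95% from the moderated standard error. The fit was tested on simulated data. The number of arrays limits the precision. Genes named were those past an unadjusted p of 0.05 (at most 4 per family and direction), the gene with the highest WT signal of each family, and all members of 8 families, and, in families with no p under 0.05, the gene with the largest difference. Any other gene was chosen after its values were seen. The members and lists were chosen with earlier results of these data known. Alternatives were 2 scalings, 3 choices of clusters, 2 variance priors, weighted arrays, a replicate block, each array left out, the dimmer cluster of a gene, and a minimum log2 difference of 1.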

Additional observations from a re-analysis of the deposited data

How the results depend on the processing

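In none of the alternatives was a cell wall or barrier gene called, with smallest adjusted p of 0.0555 (clusters with 1 gene only) to 0.506 (without dsl1 replicate 2). The count over all clusters, 14, became 75 when only clusters with 1 gene were fitted, 52 when the table's first 7793 rows, with which no gene is paired, were left out, and 0 to 8 with 1 array left out. The count of members lower at an unadjusted p under 0.05, 8, was 5 on median centring, 4 without the dimmest 33.3% of clusters (which leaves 69 of the 100 genes) and 3 to 5 with 1 array left out. The count of members higher, 9, was 5 to 12 with 1 array left out. Over all clusters, 6459 were under 0.05 in either direction, and 4669 to 6458 with 1 array left out. The members' median of 0.023 was 0.10 without those dim clusters and 0.01 to 0.084 with 1 array left out. Same-numbered arrays did not deviate together (correlations of -0.064, -0.13 and -0.052 between WT and dsl1), so the numbers are not taken as pairs. Differently numbered arrays correlated at -0.15 to 0.20, and structure shared under another matching was not tested. With the replicate block 1 cluster was called and 5 members were lower. Over 828 alternative values for 56 genes, 47 genes kept their sign and 9 did not. The choices of clusters, the variance priors and the replicate block leave a gene's difference as it was, so those values could not change sign. Many of the 56 genes were also named for a small p or a large difference in these same data. A kept sign is therefore not read as stability. BC2 turned to -0.036 on quantile normalisation, -0.0074 with array weights and -0.055 to 0.052 with 1 array left out. CAD8A turned to 0.047, 0.00018 and -0.20 to 0.095, EXPA11 to -0.034 on quantile normalisation and -0.13 to 0.10, and XTH8 to 0.0078 with array weights and -0.16 to 0.086. With 1 array left out CAD3 ran from -0.27 to 0.026, CAD8B from -0.30 to 0.026, CAD8D from -0.06 to 0.70, GLU10 from -0.31 to 0.10 and GLU14 from -0.21 to 0.15. Dim clusters limit what can be read from the 22 members in the dimmest of the 5 groups.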
